A study of Mus musculus with 3 samples.

Results

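Pericytes are the mural cells that wrap capillaries and postcapillary venules. They share the basement membrane of the endothelium, and platelet-derived growth factor from endothelial cells (ECs) recruits them through the receptor Pdgfrb, while Notch3 keeps their mural identity. In the thymus they line the vessels at which progenitors enter and mature T cells leave. Their nearest relatives are vascular smooth muscle cells (vSMCs), which surround larger vessels and carry the full contractile machinery.

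Here pericytes were cell barcodes selected on the UMIs (unique molecular identifiers) of 7 genes. The sum of Abcc9 and Kcnj8, which encode both subunits of a potassium channel opened when ATP is low, had to reach 2 UMIs, and Rgs5, a regulator of G protein signaling, had to have at least 1. Myh11, Pecam1, Epcam and Pdgfra, which mark vSMCs, ECs, thymic epithelial cells (TECs) and fibroblasts (FBs), had to be at 0. The rule found 126 pericytes among 14956 barcodes with more than 1000 genes and under 20% mitochondrial UMIs. Abcc9 (chr6:142587862-142702315, minus strand, GRCm38) and Kcnj8 (chr6:142564837-142571614, minus strand) are neighboring genes, and Rgs5 lies at chr1:169655501-169695813 on the plus strand.

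The barcodes came from single-cell RNA sequencing of nonhematopoietic (CD45−) thymic cells of C57BL/6 mice aged 20 months, from pooled thymi. There were 3 libraries, each the sole one of its group (n = 1). The female and the male Foxn1Lin library came from mice with Foxn1-cre and the R26-fl-Stop-fl-tdTomato reporter, in which cells with a history of Foxn1 expression, a TEC transcription factor, make tdTomato. The wild type male library carried neither allele, and its cell type label adds PECAM1+ where its title has CD45− alone. Its barcodes included 905 FBs, 604 TECs and 302 vSMCs, all with Pecam1 at 0 UMIs, beside 789 ECs. The protocol text names female mice throughout, whereas Xist, the transcript of the inactive X chromosome, was at 798 CPM (counts scaled to the summed UMIs of a class) in pericytes of the Foxn1Lin female library and had 0 UMIs in pericytes of both male libraries, as the titles have it. Values below are in this order: Foxn1Lin female, then Foxn1Lin male, then wild type. The libraries held 8616, 3583 and 5478 called barcodes with 53366016, 33386621 and 61258534 UMIs.

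Pericytes were 78 of 6887 barcodes in Foxn1Lin female, 25 of 3178 in Foxn1Lin male and 23 of 4891 in wild type. These are 1.13% (95% Clopper-Pearson interval 0.896 to 1.41), 0.787% (0.51 to 1.16) and 0.47% (0.298 to 0.705). All intervals cover counting error only, and differences between libraries have no replicate check, since each group has 1. The order of the 2 Foxn1Lin libraries changed when barcodes under 3000 UMIs were left out. It held with more than 1500 genes and under 10% mitochondrial UMIs, at 0.883% and 0.839%. With barcodes under 3000 UMIs dropped, 41 of 5603, 24 of 2958 and 20 of 4578 barcodes were pericytes. When the remaining barcodes were also thinned to 3000 UMIs before the rule was applied, the shares were 0.892%, 1.18% and 0.677%. In both cases Foxn1Lin male stood highest and wild type lowest. The median pericyte held 3067, 5013 and 4608 UMIs in the 3 libraries, against 5953, 8275 and 8817.5 in all other barcodes, and summed pericyte UMIs were 272031, 137633 and 119964.

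**Figure D1:**
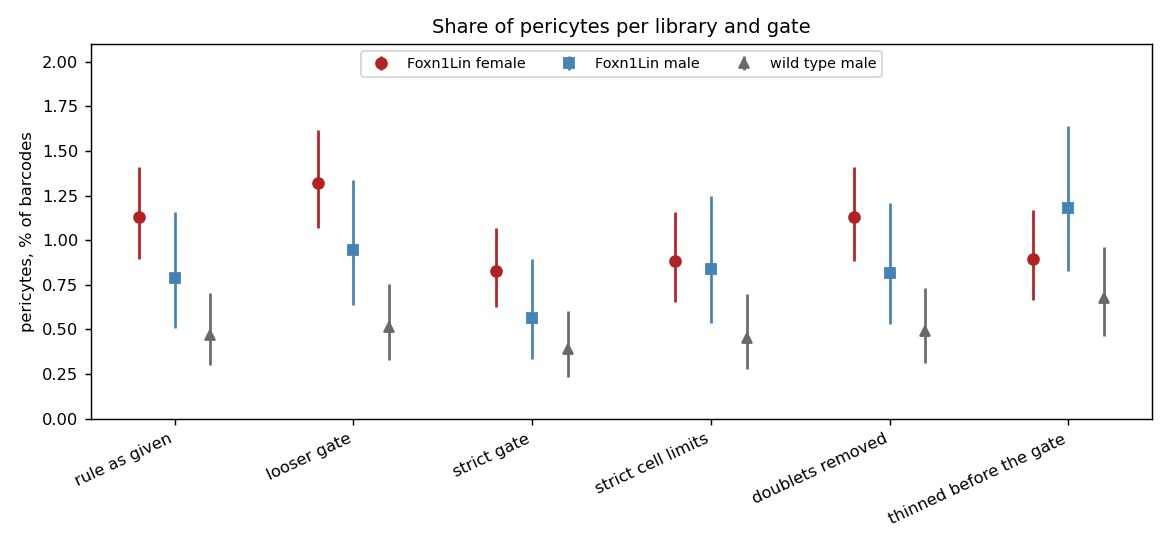
Share of pericytes (percent of barcodes within the gene and mitochondrial limits) per library under the rule as given and 5 alternative rules, with 95% Clopper-Pearson bars that cover counting error only. Wild type sat lowest under each, from 0.388% to 0.677%, while the 2 Foxn1Lin libraries changed order in the thinned set, from which barcodes under 3000 UMIs were dropped.

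The zero terms removed more barcodes than they left. Before them, 342, 130 and 187 barcodes met the Abcc9, Kcnj8 and Rgs5 terms. Pecam1 alone removed 83, 12 and 10 of these, Myh11 alone 49, 37 and 59, and Pdgfra alone 19, 10 and 31. The barcodes on both sides of the threshold of 2 were few. Just inside, 5, 3 and 0 barcodes had exactly 2 UMIs of Abcc9 and Kcnj8, and Notch3 was at 521 and 485 CPM in those of the 2 Foxn1Lin libraries. Just outside, 13, 5 and 2 barcodes had 1 UMI, with Notch3 at 474, 673 and 754 CPM. Most members lay well within the rule, as 65 of 78, 21 of 25 and 22 of 23 pericytes had at least 4 UMIs of the channel genes. Doublet scores marked 4 pericytes of Foxn1Lin female and 0 of the others among the highest 3.9% of scores. Between 3 and 14 barcode sequences were shared by any 2 libraries.

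The genes of the rule are given as a description. Abcc9 was at 1738.8, 857 and 1908.9 CPM in the pericytes of the female, the Foxn1Lin male and the wild type library, and at 141, 133 and 207 CPM in vSMCs. Kcnj8 was at 1091.8, 574 and 383 CPM, while vSMCs had 58.7, 36.5 and 42.9 CPM. Rgs5, in contrast, did not set pericytes apart from vSMCs in every library. It was at 2907.8, 2325 and 3059.3 CPM in pericytes and at 1166.2, 2880.4 and 4321.7 CPM in vSMCs, higher in the vSMCs of both male libraries.

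The label was next checked against markers outside the rule. Notch3 (chr17:32120820-32166852, minus strand) was at 845, 458 and 825 CPM in pericytes, beside 31, 5.88 and 8.25 CPM in ECs and 44, 42.6 and 44.7 CPM in FBs. At least 1 Notch3 UMI was seen in 83.3%, 92% and 91.3% of pericytes, with median depths of 3067, 5013 and 4608 UMIs, and in 7.17%, 2.4% and 1.65% of ECs, with median depths of 4385, 7382 and 7129 UMIs. After thinning to 2000 UMIs, which left out 11 pericytes of Foxn1Lin female, the share in pericytes was 73.1%, 56% and 78.3%. Cspg4, the NG2 proteoglycan (chr9:56865033-56899870, plus strand), was sparser. It was at 199, 58.1 and 50 CPM in pericytes, beside 9.81, 1.31 and 5.09 CPM in FBs. The 12 pericyte markers outside the rule summed to 5210.1, 3655.2 and 3418 CPM, against 505, 592 and 651 CPM in FBs and 254, 107 and 124 CPM in ECs, and 0 of them were at 0. In vSMCs the same markers summed to 3721.3, 3869.8 and 3912.5 CPM, above the pericytes of both male libraries, and 88.3%, 93.4% and 93.7% of vSMCs had a Notch3 UMI.

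Markers of other cells were not absent. The 8 endothelial markers summed to 353, 145 and 108 CPM in pericytes, with 0, 3 and 4 of them at 0, against 7284.7, 6367 and 6480.1 CPM in ECs and 1636.6, 1171.9 and 843 CPM in empty droplets. The 9 fibroblast markers summed to 1234.9, 1163.1 and 908 CPM, with 0, 3 and 4 at 0, against 14474.6, 15614.3 and 13497.8 CPM in FBs. Single barcodes held much of this sum, as 1 pericyte per library had 47.1%, 93.2% and 48.8% of the UMIs of Dcn, a matrix proteoglycan. The 11 hematopoietic markers summed to 84.6, 7.27 and 33.4 CPM, with 2, 10 and 8 at 0. Mesothelial markers were at 84.6, 0 and 0 CPM, with 0, 6 and 6 of 6 at 0, and Schwann cell markers at 107, 14.5 and 0 CPM, with 4, 4 and 6 of 6 at 0. The Schwann cell sum of Foxn1Lin female pericytes was above that of every other class of that library (7.73 to 28.7 CPM) and of its empty droplets (20.6 CPM). The 7 epithelial markers summed to 224, 65.4 and 41.7 CPM, with 1, 3 and 5 at 0, and the 4 red cell genes to 397, 0 and 8.34 CPM, with 0, 4 and 3 at 0. These sums were highest in Foxn1Lin female. Its empty droplets held the most red cell RNA (3776.6 CPM against 41.1 and 37.4) but the least of the epithelial markers (2562.9 CPM against 3934.6 and 3612.7).

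**Figure D2:**
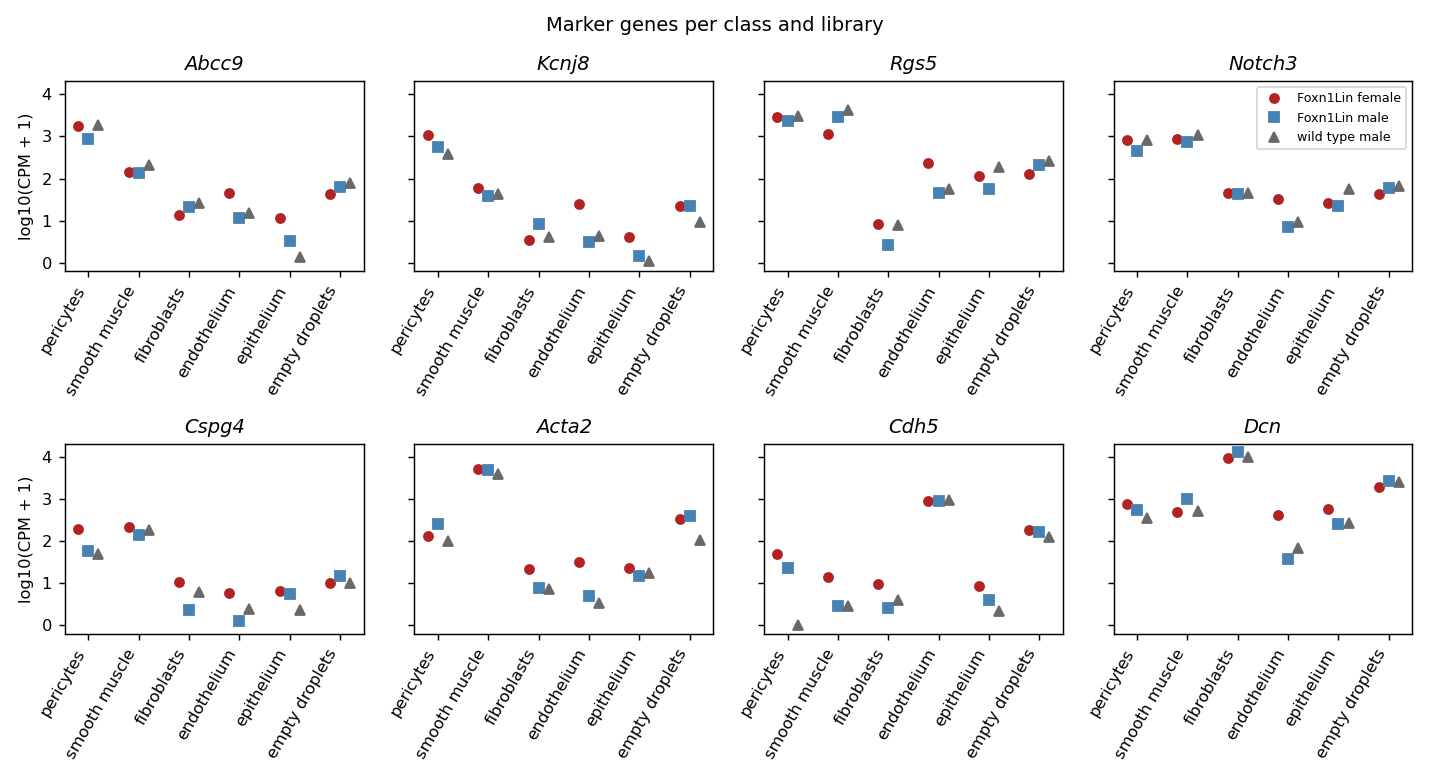
Level of 8 marker genes, as log10(CPM + 1) of summed UMIs, in 5 cell classes and in empty droplets, with 1 point per library. Abcc9 and Kcnj8 stand highest in pericytes in all 3 libraries, Notch3 and Rgs5 are near their level in vSMCs, and Acta2 is far lower in pericytes (129, 262 and 100 CPM) than in vSMCs.

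The comparison with all other barcodes is the contrast of the rule and therefore a description. Of 1331 genes at 100 CPM or more in pericytes of every library, 66 (4.96%) were at least 4-fold higher in each. Trpc6, a receptor-operated calcium channel, led the genes outside the rule, at 434, 516 and 1150.3 CPM against 11.1, 22 and 15.3 CPM, a ratio of at least 23.5 in each library. Agtr1a, the angiotensin II receptor, followed with 290, 262 and 308 CPM against 13.1, 6.23 and 5.79 CPM. The next places went to Cox4i2, a cytochrome c oxidase subunit known from oxygen sensing (smallest ratio 17.2), the Rac regulator Chn1 (17.2), Gm28055 (16.4), the scaffold gene Ppfia2 (14.6), Stac (14.5), Vstm4 (13.8) and the potassium channel Kcnq5 (12.6). Cpm, a carboxypeptidase, Mnd1, Sgip1 and Higd1b, a small mitochondrial protein and pericyte marker, had smallest ratios of 12.5, 12.5, 11.5 and 11. Both subunits of the nitric oxide receptor, Gucy1b1 (10.7) and Gucy1a1 (10.3), Art3 (9.86) and vitronectin, Vtn (9.54), completed the list. Of these, Higd1b, Gucy1a1 and Gucy1b1 did not pass the test against vSMCs below.

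To ask how pericytes differ from vSMCs, UMIs were summed per library and class and tested with edgeR's quasi-likelihood test, with the library as block and Benjamini-Hochberg adjustment. vSMCs were 282, 335 and 302 barcodes with at least 2 Myh11 UMIs. Of 8315 genes tested, 511 were higher in pericytes (6.15%) and 792 lower (9.52%), and the median log2 fold change was −0.04. Myh11 separates both classes, and only pericytes had to carry the channel genes and Rgs5. Genes that accompany any of these within single cells were thus in part sorted by the rule, in both directions. The vSMCs included 21, 29 and 46 barcodes that met every other term of the pericyte rule. The p-values measure agreement between 3 libraries, not independence from the rule.

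Contractile genes were the lowest group in pericytes. Of the 20 genes of the list, 19 were tested, and 16 were lower and 0 higher, beside 9.52% and 6.15% of all genes. The median log2 fold change was −3.22. Acta2, smooth muscle actin, was at 129, 262 and 100 CPM in pericytes and at 5144.2, 4882.9 and 3888.5 CPM in vSMCs (log2 fold change −5.09, SE 0.311, adjusted p = 2.22e-09). Pericytes of Foxn1Lin male were the highest of the 3, and both classes did not overlap. The actin-binding gene Tagln was at 162, 1169.8 and 133 CPM in pericytes, also highest in Foxn1Lin male, and at 4001.5, 4667.5 and 3179.2 CPM in vSMCs (−3.8, SE 0.414, adjusted p = 1.81e-06). In that library 10 of 25 pericytes had at least 5 Tagln UMIs, against 0 of 78 and 1 of 23 in the others.

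Some smooth muscle genes were not detected in pericytes at this depth. Myocd, the coactivator that drives smooth muscle genes, had 0 UMIs in pericytes of all libraries and was at 241, 206 and 322 CPM in vSMCs, at least 44.2-fold lower with a floor of 3 UMIs over the group. Pln, phospholamban, which restrains calcium uptake into the sarcoplasmic reticulum, was at least 37-fold lower, and the calponin gene Cnn1 at least 15.5-fold lower, both with 0 UMIs. Myosin light chain Myl9 fell less. It was at 680, 421 and 325 CPM in pericytes and at 2726.6, 2378.5 and 1635.2 CPM in vSMCs (−2.44, SE 0.243, adjusted p = 6.7e-07). Mylk, its kinase (−2.27), and the tropomyosins Tpm1 (−2.35) and Tpm2 (−3.22) were also lower. Cald1, caldesmon, did not pass the test, at 1415.3, 1547.6 and 2500.8 CPM against 2211.1, 2105.5 and 2176.2 CPM. Seen from FBs, 10 of 14 contractile genes tested were higher in pericytes and 0 lower, beside 6.17% and 9.9% of all genes. The higher ones included Myl9 (4.93), Tagln (4.3) and Acta2 (3.68). Empty droplets held Acta2 at 333, 387 and 105 CPM, above pericytes in each library, Tagln at 268, 337 and 80.6 CPM and Myl9 at 198, 166 and 41.8 CPM, and the part of free RNA in these levels was not tested.

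**Figure D3:**
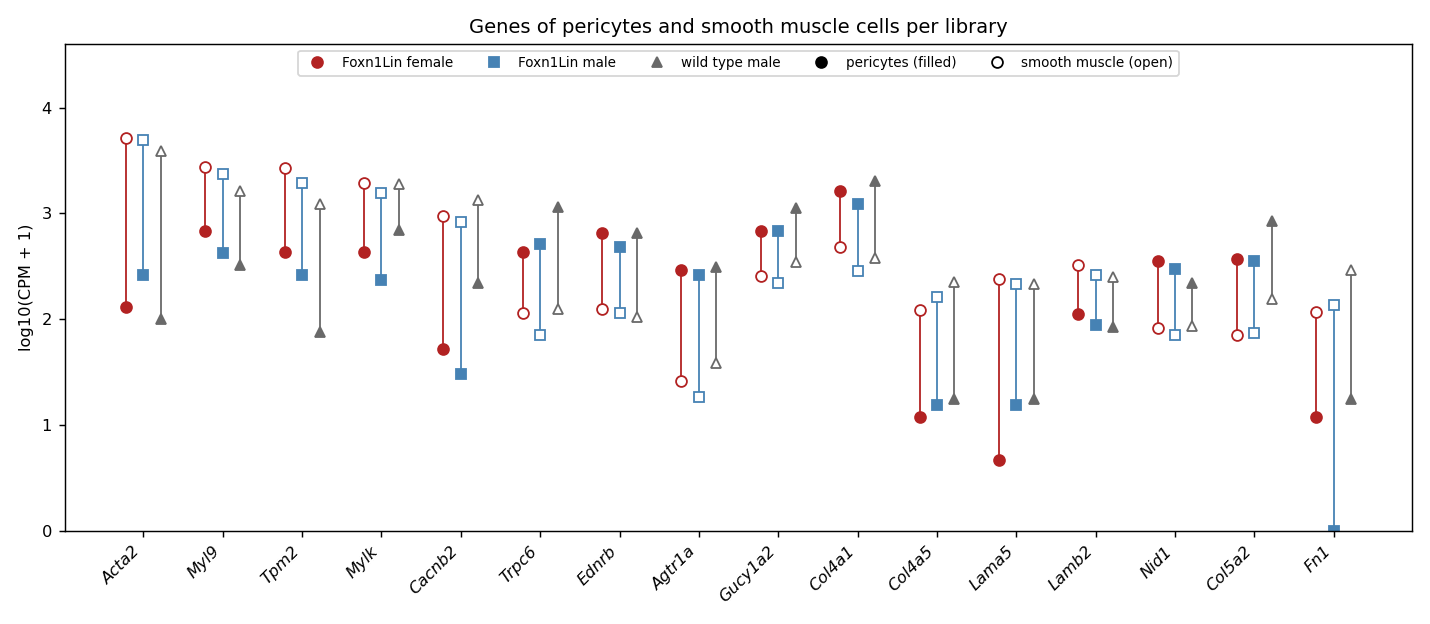
Level of 16 genes, as log10(CPM + 1), in pericytes (filled) and vSMCs (open) of each library, joined by a line per library. Contractile genes from Acta2 to Mylk and Cacnb2 lie lower in pericytes in all 3 libraries, whereas Trpc6, Ednrb, Agtr1a, Gucy1a2, Col4a1, Nid1 and Col5a2 lie higher in all 3.

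Of 21 ion channels and calcium handling genes tested of 24 listed, 2 were higher and 12 lower, beside 6.15% and 9.52% of all genes. The median log2 fold change was −1.8 beside −0.04 for all genes. Trpc6 was the one member higher under every alternative processing, at 434, 516 and 1150.3 CPM, compared with 113, 70.2 and 123 CPM in vSMCs (2.51, SE 0.272, adjusted p = 1.79e-06). Cacna1c, the pore of the L-type calcium channel, did not pass the test, at 1363.8, 1104.4 and 2400.7 CPM against 1246, 1002.9 and 2116.2 CPM. Among the lower members, Kcnma1, the large-conductance calcium-activated potassium channel, had UMIs in Foxn1Lin female alone (18.4, 0 and 0 CPM against 245, 150 and 182 CPM; −4.71). Ryr2, which releases calcium from the sarcoplasmic reticulum (−4.79), Cacnb2, a calcium channel subunit (−3.84), the sodium-calcium exchanger Slc8a1 (−3.47) and the calcium pump Atp2a2 (−1.54) were lower too. Ano1, a calcium-activated chloride channel, did not pass the test, at 426, 516 and 667 CPM against 262, 306 and 553 CPM.

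Vasoactive receptors differed in both directions. Of 24 tested of 29 listed, 5 were higher and 7 lower, beside 6.15% and 9.52% of all genes. This was close to an even balance (median −0.07). Agtr1a was at 290, 262 and 308 CPM in pericytes and at 25, 17.3 and 37.6 CPM in vSMCs (3.3, SE 0.279, adjusted p = 1.49e-07). Its levels in pericytes were nearly equal across libraries and did not overlap with vSMCs. Ednrb, an endothelin receptor, was at 658, 480 and 650 CPM against 125, 113 and 105 CPM (2.19, SE 0.237, adjusted p = 1.73e-06), while the other endothelin receptor Ednra did not pass the test. Adra1a, the alpha-1A adrenergic receptor, had 0 UMIs in pericytes and was at least 24.6-fold lower. Ptgir, the prostacyclin receptor (−1.67), and Adcy5, an adenylyl cyclase (−2.43), were lower as well. The main nitric oxide receptor subunits did not pass the test. Gucy1a1 was at 489, 712 and 383 CPM against 502, 575 and 509 CPM, and Gucy1b1 at 452, 429 and 292 CPM against 260, 315 and 299 CPM. Its alternative subunit Gucy1a2 was higher in pericytes, at 680, 676 and 1125.3 CPM against 257, 220 and 346 CPM (1.4, SE 0.225, adjusted p = 0.000166).

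Most pericyte markers did not pass the test against vSMCs. Of 12 tested, 3 were higher and 2 lower, against 6.15% and 9.52% of all genes. Vtn was the one member higher under every alternative, at 460, 421 and 333 CPM against 66.5, 128 and 81 CPM (2.01, SE 0.257, adjusted p = 1.16e-05). Pdgfrb was at 790, 552 and 734 CPM against 267, 288 and 361 CPM (1.01, adjusted p = 0.00429), and without Foxn1Lin female its value was 0.8 (adjusted p = 0.0613). Notch3 did not pass the test (−0.55, adjusted p = 0.117). Cspg4 was lower in pericytes (−1.05, adjusted p = 0.0258), a call lost without Foxn1Lin male (−0.93, adjusted p = 0.072) and without wild type (−0.75, adjusted p = 0.102). Higd1b was at 522, 233 and 192 CPM against 229, 209 and 214 CPM and did not pass (0.28, adjusted p = 0.575), with the higher value resting on Foxn1Lin female (−0.17 without it).

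The basement membrane differed in its chains. Of 23 tested of 27 listed, 10 were higher and 6 lower, beside 6.15% and 9.52% of all genes. Col4a1 and Col4a2, the common collagen IV chains, were higher in pericytes. Col4a1 was at 1643.2, 1220.6 and 2017.3 CPM against 477, 282 and 378 CPM (1.93, SE 0.234, adjusted p = 6.33e-06), although the deepest barcode held 65.3% of its wild type UMIs, without which that library was at 855 CPM. Nid1, which links laminin and collagen IV (1.7), and Sparc, a collagen-binding protein (1.58), rose with them. Col4a5 and Col4a6, the chains paired in smooth muscle, were lower. Col4a5 was at 11, 14.5 and 16.7 CPM against 122, 162 and 226 CPM (−3.73, SE 0.398, adjusted p = 1.56e-06), and Col4a6 had 0 UMIs, at least 20.7-fold lower. Laminin chains went both ways. Lama5 (−4.71) and Lamb2 (−1.75) were lower. Lamb1 (1.78), Lamc3 (1.31) and Lama4 (0.91) were higher, but Lamb1 and Lamc3 lost the call without Foxn1Lin female (1.43 and 0.67, adjusted p = 0.0571 and 0.661) and Lamc3 and Lama4 without Foxn1Lin male (1.25 and 0.55, adjusted p = 0.0709 and 0.355).

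Several interstitial collagens were higher in pericytes than in vSMCs. Of 26 tested of 27 listed, 12 were higher and 6 lower, beside 6.15% and 9.52% of all genes. Under every alternative, 8 of the higher ones held. Col5a3, a minor fibrillar collagen chain, was at 338, 225 and 267 CPM against 39.1, 27.6 and 32.2 CPM (2.88, SE 0.261, adjusted p = 2.58e-07). Col5a2 (2.21), Col6a3 (1.97), Col1a1 (1.71), Col6a1 (1.65), Col3a1 (1.6) and Col5a1 (1.41) were also higher. The deepest wild type barcode, with 18.1% of that library's pericyte UMIs, held much of this in wild type. Without it Col3a1 fell from 1183.7 to 458 CPM, Col6a1 from 942 to 437, Col6a3 from 650 to 244, Col1a1 from 342 to 163, Col5a3 from 267 to 112 and Nid1 from 217 to 71.2, and the calls of these genes held. Postn, periostin, was at 1088.1, 392 and 1667.2 CPM against 163, 161 and 373 CPM (1.91, SE 0.265, adjusted p = 3.09e-05). Fibronectin, Fn1, went the other way at 11, 0 and 16.7 CPM against 117, 135 and 290 CPM (−4.27, SE 0.46, adjusted p = 1.63e-06), as did elastin, Eln (−2.06).

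Some lipid handling genes were higher in pericytes. Of 12 tested of 20 listed, 5 were higher, 2 lower and 5 did not pass, beside 6.15% higher and 9.52% lower among all genes. The lower ones were Apoe, a lipid carrier (−1.32, but 0.26 with vSMCs defined by Acta2 and Tagln), and Plin4, another lipid droplet protein, with 0 UMIs and at least 9.17-fold lower. Pparg, a nuclear receptor that drives lipid uptake and storage, was at 632, 262 and 233 CPM against 110, 24.8 and 37.1 CPM (2.64, SE 0.267, adjusted p = 8.53e-07). Plin2, a coat protein of lipid droplets, was at 316, 247 and 150 CPM against 49.3, 32.3 and 25.4 CPM (2.55, SE 0.271, adjusted p = 1.53e-06). The fatty acid receptor Cd36 was at 544, 480 and 142 CPM against 111, 26.2 and 16.6 CPM (2.96, SE 0.329, adjusted p = 2.31e-06), and 1 barcode held 58.8% of its wild type UMIs. Without the deepest wild type barcode, Pparg and Plin2 were at 153 and 81.4 CPM in that library.

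The fatty acid carrier Fabp4 was at 3643, 7825.2 and 1200.4 CPM against 1380.5, 533 and 245 CPM (2.34, SE 0.356, adjusted p = 9.06e-05), and lost its call in the fit without the library block. A single barcode held 54.9% of its wild type UMIs. ECs express Cd36 and Fabp4 strongly, at 1848.2, 2308.3 and 2339.3 CPM and at 15323.3, 13880.4 and 8739.5 CPM. Empty droplets held Fabp4 at 4588.2, 3381.6 and 1440.3 CPM. The endothelial marker list was at 353 of 7284.7, 145 of 6367 and 108 of 6480.1 CPM in pericytes and ECs, with Pecam1 at 0 by the rule. In vSMCs it was at 150, 58.5 and 27.8 CPM, below pericytes in each library, and the part of EC RNA in Cd36 and Fabp4 was not tested. Pparg and Plin2 in ECs were at 229, 255 and 230 CPM and at 185, 140 and 85.3 CPM.

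Among the 12 genes with the highest fold change over vSMCs, Adgrf5, an adhesion G protein-coupled receptor, led at 559, 247 and 600 CPM against 85.3, 20.6 and 30.7 CPM (3.31, SE 0.302, adjusted p = 2.86e-07). ECs held it at 1162.5, 908 and 944 CPM, and 1 barcode had 51.4% of its wild type UMIs. Agtr1a, Pla1a, a phospholipase (3.15), Cpm (3.12), the Rac activator Prex2 (3.11), the ether lipid enzyme Agmo (2.98), Cd36, Chn1 (2.95), the cadherin Cdh2 (2.93), Col5a3, Ppfia2 (2.86) and Arhgdib (2.82), followed. Prex2 and Agmo were also present in ECs, at 758, 816 and 1161.1 CPM and at 140, 213 and 277 CPM. Cdh2, N-cadherin, which joins pericytes to ECs, was not, at 11.5, 10.9 and 14.6 CPM in ECs beside 287, 167 and 483 CPM in pericytes. Emcn, an endothelial marker, was higher in pericytes than in vSMCs (2.92, SE 0.443), at 95.6, 65.4 and 83.4 CPM beside 568, 540 and 558 CPM in ECs and 142, 137 and 87.5 CPM in empty droplets. What EC RNA contributed to these genes was not tested.

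The 12 genes with the lowest fold change were led by Myocd and Pln, described above. Pcp4l1, a small calmodulin-binding protein gene, was at 3.68, 7.27 and 8.34 CPM against 907, 790 and 574 CPM (−7.26, SE 0.431, adjusted p = 1.94e-09). Thsd4 (−7.14), Map3k7cl (−6.54), the cadherin Cdh6 (−6.37), Fgf13 (−6.21), the kinase anchor Akap6 (−5.93), Rgs7bp (−5.83), the potassium channel subunit Kcnab1 (−5.72), the catenin Ctnna3 (−5.53) and the sarcomere gene Myom1 (−5.35) followed. Kcnab1 was at 29.4, 21.8 and 50 CPM in pericytes and at 1511.9, 1159.7 and 1913.3 CPM in vSMCs.

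Signaling genes of the PDGF, Notch, TGF-beta and angiopoietin axes had a median of −0.02 beside −0.04 for all genes. Of 30 tested of 36 listed, 3 were higher and 8 lower in pericytes, beside 6.15% and 9.52% of all genes, and 1 of the higher and 5 of the lower ones held under every alternative. The higher ones were Cdh2 (2.93), an adhesion gene that the list also holds, Pdgfrb (1.01) and the ligand Tgfb1 (0.92). Tgfb1 lost its call without any one of the 3 libraries (0.7 to 1.14, adjusted p = 0.0571 to 0.141). The ligand Tgfb2 was lower (−3.47, SE 0.53), as were the Notch target Hey2 (−2.05), Notch2 (−1.36) and the PDGF ligand Pdgfa (−1.22). Of 21 transcription factors tested of 27 listed, 5 were higher and 6 lower. Hic1, a repressor found in mesenchymal progenitors, was at 99.3, 79.9 and 58.4 CPM against 21.9, 7.49 and 17.1 CPM (2.22, SE 0.417, adjusted p = 0.0008). Foxc1 (−3.07) and Mef2c (−1.28) were lower, beside Myocd.

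Among immediate early and heat shock genes, 1 of 23 was higher and 8 were lower, beside 6.15% and 9.52% of all genes. Nr4a1 was at 191, 203 and 533 CPM, compared with 956, 1723.9 and 1652.8 CPM in vSMCs (−2.49, SE 0.278), and Klf2 (−2.39), Fosl2 (−1.65) and Ier3 (−1.63) were also lower, while Fos, Jun and Egr1 did not pass the test. Of 28 integrins and adhesion receptors tested, 2 were higher, near the share of all genes, and 7 lower. The lower ones included the tetraspanin Cd9 (−2.08) and the glycoprotein Cd200 (−1.82). In 16 of 18 complement and MHC genes the test was not passed and 2 were lower, near the 9.52% of all genes. The 2 included Cd74, at 73.5, 36.3 and 25 CPM against 159, 233 and 280 CPM (−2.27, SE 0.358). Of 4 cell cycle genes tested of 16 listed, 0 passed, and the proliferation marker Mki67 had 1 UMI in the pericytes of Foxn1Lin female and 0 in the others.

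**Figure D4:**
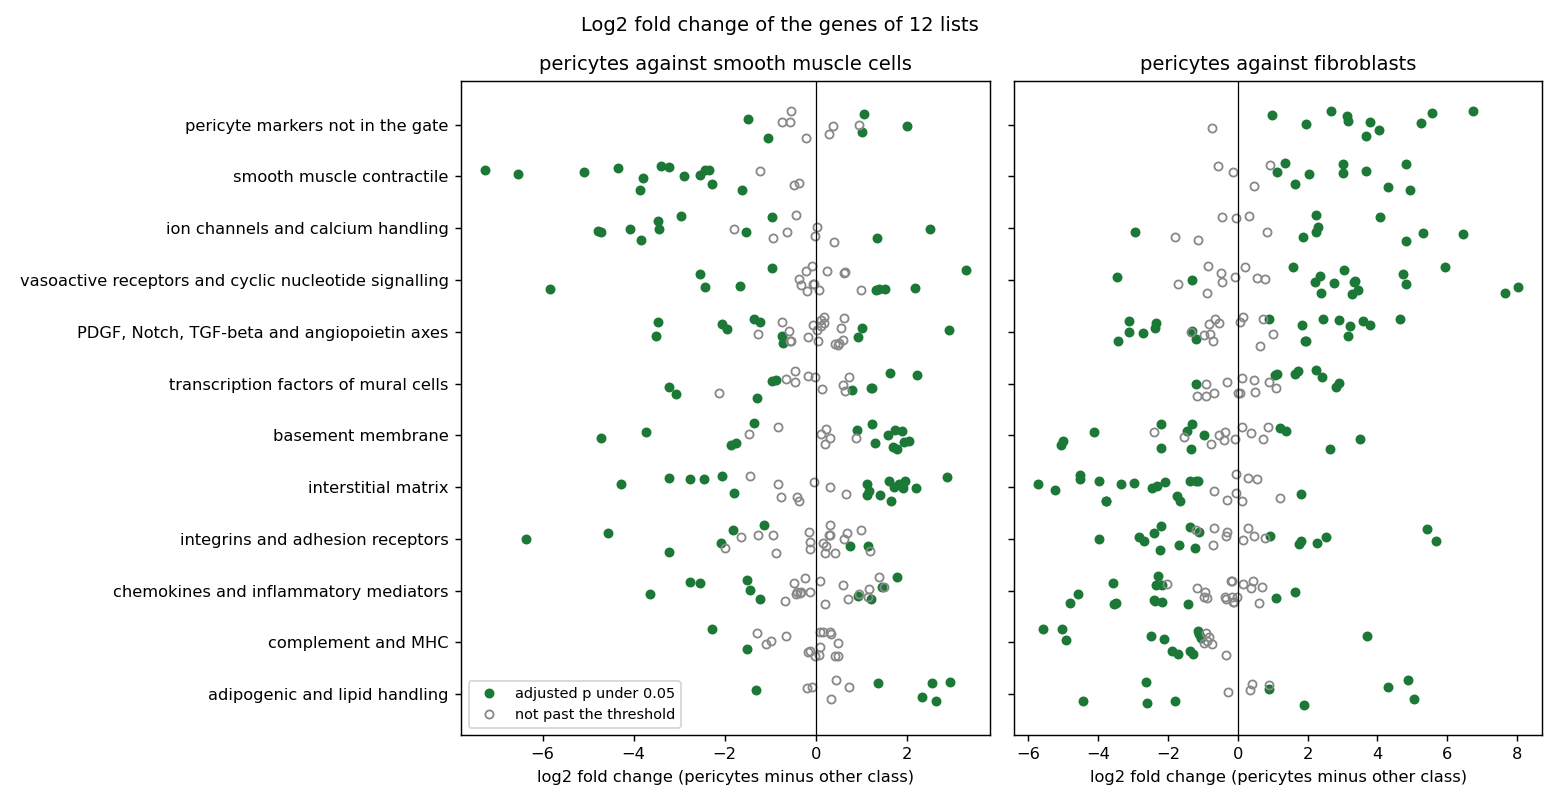
Log2 fold change of the tested genes of 12 lists, pericytes against vSMCs (left) and against FBs (right), with 1 point per gene, filled where the adjusted p was under 0.05. Genes with 0 UMIs in pericytes are left out. Contractile genes lie left of 0 against vSMCs and mostly right of 0 against FBs, and interstitial matrix genes lie mostly right of 0 against vSMCs and left against FBs.

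Against FBs, the other mesenchymal class, 669 of 10839 genes were higher in pericytes (6.17%) and 1073 lower (9.9%), with a median of −0.14. FBs were 1262, 402 and 905 barcodes with at least 2 Pdgfra UMIs and under 2 of the channel genes, so that genes that go with these were again in part sorted by the rule. Of 12 pericyte markers, 11 were higher and 0 lower, and 10 of them held under every alternative. Higd1b was at 522, 233 and 192 CPM against 1.62, 1.84 and 4.29 CPM (6.75, SE 0.452, adjusted p = 4.41e-12). Mcam, an adhesion molecule of mural cells (5.55), Cox4i2 (5.25), Cspg4 (4.05), Notch3 (3.79), Vtn (3.68), the gap junction gene Gja4 (3.16), Ndufa4l2 (3.12), Aspn (2.68) and Pdgfrb (1.94) were higher too. Of 9 fibroblast markers, 8 were lower, among them Lum (−5.24), Dpt (−5.07) and Dcn (−4.53).

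Of the vasoactive signaling genes tested against FBs, 15 of 26 were higher and 2 lower (median 2.29), beside 6.17% and 9.9% of all genes. Stac, an adaptor of calcium channels outside this list, had the highest fold change of all, at 522, 254 and 233 CPM against 1.01, 0.526 and 0 CPM (9.16, SE 0.481, adjusted p = 3.69e-14). Ednrb was at 658, 480 and 650 CPM against 1.92, 1.05 and 2.95 CPM (8.04, SE 0.41, adjusted p = 3.69e-14), and Rgs4 followed at 7.66, Cpm at 7.54, Kcnq5 at 6.82, Rgs6 at 6.47 and Trpc6 at 6.45. Inpp4b (6), Gucy1a1 (5.93), Gm28055 (5.92) and Adgrf5 (5.54) completed the 12 highest. Further genes of nitric oxide signaling were higher as well, with Gucy1b1 at 4.72, the cyclic GMP phosphodiesterase Pde5a at 3.43 and the cyclic GMP-dependent kinase Prkg1 at 1.59.

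Many matrix genes were lower than in FBs. Of 26 interstitial matrix genes tested, 1 was higher and 17 lower (median −1.7), beside 6.17% and 9.9% of all genes. Fn1 was at 11, 0 and 16.7 CPM against 557, 242 and 397 CPM (−5.73, SE 0.515, adjusted p = 1.19e-09). Col1a1, higher than in vSMCs, was lower than in FBs, at 110, 196 and 342 CPM against 548, 443 and 774 CPM (−1.74, SE 0.339, adjusted p = 0.000329), and at 163 CPM in wild type without the deepest barcode. The one gene that rose was Timp3, a metalloproteinase inhibitor bound to matrix, at 893, 3618.3 and 2059 CPM against 384, 738 and 366 CPM (1.82, SE 0.336, adjusted p = 0.000172). Of 25 basement membrane genes, 4 were higher and 10 lower. Col4a2 was higher (1.37, SE 0.322), Col15a1 (−4.11) and Lama2 (−2.2) were lower, and Col4a1 did not pass the test (0.87, adjusted p = 0.0745), but did without Foxn1Lin male (1.22, adjusted p = 0.00685). The hyaluronan synthase Has1, Sntg1 and Dchs2 had 0 UMIs in pericytes, at least 44.7-fold, 101-fold and 38.9-fold lower. Vcan (−7.45), Mmp3 (−7.02), Nav3 (−6.62), Adgrd1 (−6.57), Pdpn (−6.39), Ace (−6.07), Adamtsl3 (−6.06), Cd34 (−5.8) and Clec3b (−5.8) were the other lowest genes.

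Several factors that act on thymocytes and TECs were lower than in FBs. Of 24 tested of 28 listed, 2 were higher, 10 lower and 12 did not pass (median −1.19). Over all genes, 6.17% were higher and 9.9% lower. Under every alternative, 6 of the lower ones held. Fgf10, a growth factor for TECs, was at 7.35, 0 and 8.34 CPM against 148, 139 and 219 CPM (−5.04, SE 0.55, adjusted p = 4.44e-08). Ptn, pleiotrophin, was at 29.4, 0 and 25 CPM against 368, 1993.9 and 1657.1 CPM (−5.78, SE 0.56, adjusted p = 4.95e-09). Igf1 (−3.1), Mdk (−3.92) and Tslp (−3.14) were lower, and Wnt5a had 0 UMIs, at least 8.57-fold lower. Kitl, stem cell factor, and Cxcl12, a chemokine for progenitors, did not pass the test against either class, but Cxcl12 did against vSMCs without wild type (0.9, adjusted p = 0.0257). Kitl was at 151, 138 and 275 CPM in pericytes, 181, 271 and 333 CPM in vSMCs and 149, 308 and 196 CPM in FBs. Cxcl12 was at 382, 131 and 167 CPM, 119, 105 and 148 CPM and 239, 122 and 192 CPM in the same order.

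Sphingosine phosphate is the signal for T cell exit. Of 15 genes of this and the related lysophosphatidic acid pathway tested against FBs, 0 were higher and 7 lower. The shares over all genes were 6.17% and 9.9%. Plpp3, which degrades lipid phosphates, was at 121, 116 and 108 CPM in pericytes, 434, 510 and 612 CPM in vSMCs and 1313.8, 1316.4 and 1042.9 CPM in FBs (−2.3 and −3.6, adjusted p = 3.18e-06 and 6.81e-09). The libraries were close within each class and the classes did not overlap. Sphk1, the kinase that makes the signal, had UMIs in Foxn1Lin male alone, at 14.5 CPM.

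Of 32 chemokine and mediator genes tested against FBs, 2 were higher and 12 lower, beside 6.17% and 9.9% of all genes, and 0 of the higher and 4 of the lower ones held under every alternative. Of 27 tested against vSMCs, 4 were higher and 6 lower, beside 6.15% and 9.52% of all genes. Cxcl13, a B cell chemokine, was at 29.4, 0 and 0 CPM, compared with 246, 681 and 183 CPM in FBs (−4.8), and Ptgs2, cyclooxygenase 2, was lower as well (−4.57). Igfbp5 was the one gene of the list lower than in vSMCs under every alternative (−2.55). Many complement and MHC genes were lower than in FBs, with 1 of 19 higher and 12 lower. C3 was at 254, 94.5 and 150 CPM against 3791.6, 4275.6 and 4926.7 CPM (−4.93, SE 0.408, adjusted p = 2.74e-10), and Cfb was at −5.05. Of 13 lipid genes, 5 were higher and 4 lower, with Cd36 (5.04), Fabp4 (4.88) and Pparg (4.3) higher and Apoe (−2.59) lower. Of 16 oxygen-related genes, 5 were higher and 2 lower, with Epas1, the hypoxia-inducible factor of vessels, at 504, 632 and 700 CPM against 108, 99.9 and 88.7 CPM (2.42, SE 0.314).

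Adhesion and signaling genes set pericytes apart from FBs in both directions. Over all genes tested, 6.17% were higher and 9.9% lower. Of 27 adhesion genes tested, 7 were higher and 11 lower, with the laminin receptor Itga7 (5.67), the junction gene Esam (5.41) and the collagen receptor Itga1 (2.53) higher and Cdh11 (−3.98) lower. Of 31 genes of the PDGF, Notch, TGF-beta and angiopoietin axes, 11 were higher and 8 lower, and the Notch target Heyl (2.91), Pdgfa (3.22) and Angpt2 (4.66), a vessel-destabilizing ligand, were among the higher ones. Of 22 transcription factors, 8 were higher and 2 lower, the latter near the share of all genes. Mef2c (2.82) and Meox2 (2.25) were higher, and Meox1 had 0 UMIs, at least 11.9-fold lower. Of 15 channel genes, 8 were higher and 1 lower, with Ano1 (4.81) and Cacna1c (2.29) among those higher. Of 23 immediate early and heat shock genes, 2 were higher and 4 lower, beside 6.17% and 9.9% of all genes. Under every alternative, 0 of these calls held.

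Between libraries, values are compared with no test. Of 1115 genes at 200 CPM or more in pericytes of either Foxn1Lin library, 40 were at least 4-fold higher in the female (3.59%) and 42 lower (3.77%). Of 1263 genes in the male libraries, 25 were at least 4-fold higher in Foxn1Lin male than in wild type (1.98%) and 36 lower (2.85%). The labeled sex differs in the first pair and the alleles in the second, and neither can be told apart from the library.

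Several genes higher in Foxn1Lin female pericytes were high outside pericytes too. Sema3c, a secreted guidance cue, was at 1738.8, 0 and 8.34 CPM, and it was at 1055.7 CPM in all other barcodes and 2313.5 CPM in empty droplets of the female library. Cmss1 was at 4793.6, 320 and 342 CPM, with 8915.2 CPM in empty droplets of the female library. Xist, at 798, 0 and 0 CPM, and Tnxb, a tenascin, at 529, 21.8 and 50 CPM, were higher in all other barcodes of that library as well. Pde4d, a cyclic AMP phosphodiesterase, was at 776, 7.27 and 283 CPM, whereas all other barcodes held 206, 251 and 418 CPM. In wild type 1 barcode held 97.1% of its UMIs. Pde10a was at 357, 14.5 and 200 CPM in pericytes and 85.4, 57.8 and 90 CPM elsewhere, and the deepest wild type barcode held 66.7% of its UMIs there (81.4 CPM without it).

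Cxcl10, Cxcl9, Ccl19 and Plac8, named by their ratio between the Foxn1Lin libraries, were lower in female pericytes. Cxcl10 was at 143 (95% exact Poisson interval 102 to 196), 2230.6 (1988 to 2494.6) and 2050.6 CPM (1802.3 to 2323.5), and at 369, 771 and 716 CPM in all other barcodes. Cxcl9 was at 25.7, 371 and 700 CPM, and at 198, 291 and 395 CPM elsewhere. Ccl19 (1 of 2 gene identifiers with this symbol, and so uncertain), a T cell chemokine, was at 36.8, 618 and 709 CPM. Plac8 was at 29.4, 341 and 333 CPM, and at 42, 189 and 188 CPM in all other barcodes. The female pericytes were thus below the other barcodes of their library for Cxcl10, Cxcl9 and Ccl19, and the male pericytes above theirs for Cxcl10. For Cxcl9 and Ccl19 in Foxn1Lin male the intervals (276 to 487 and 493 to 764 CPM) covered the level of the other barcodes (291 and 526 CPM), and 1 barcode held 41.2% of the Cxcl9 UMIs. Wild type intervals of Cxcl9 (559 to 867 CPM) and Ccl19 (566 to 876) lay above the other barcodes (395 and 316). Gm11290 was at 14.7, 233 and 8.34 CPM.

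Some of the largest ratios between Foxn1Lin male and wild type rested on single barcodes and others did not. Tnc, tenascin C, was at 58.8, 29.1 and 2150.6 CPM, with UMIs in 11 of 23 wild type pericytes, and its wild type level did not rest on the deepest barcode, since it was 2492.5 CPM without it. Ccl7 (18.4, 14.5 and 567 CPM) and Cxcl2 (14.7, 36.3 and 458 CPM) did rest on it, as that barcode held 91.2% and 78.2% of their wild type UMIs. Its removal left 61 and 122 CPM. Tmtc1 and Hsph1, at 400 and 375 CPM in wild type, had 81.2% and 71.1% of their UMIs in a single barcode. Higher in Foxn1Lin male were Tagln, the metallothionein Mt2 (140, 334 and 41.7 CPM) and the ADP/ATP carrier Slc25a5 (151, 233 and 33.3 CPM). So were 9930111J21Rik2 (62.5, 283 and 41.7 CPM), Gm11290 and H2-M9. All other barcodes of Foxn1Lin male and wild type held Tagln at 467 and 157 CPM and Mt2 at 699 and 311 CPM. Slc25a5 was at 235 and 158 CPM there, 9930111J21Rik2 at 74.3 and 59.4 and Gm11290 at 69.7 and 34. Empty droplets of these libraries held Mt2 at 869 and 525 CPM, above their pericytes. H2-M9 is described in the closing section.

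**Figure D5:**
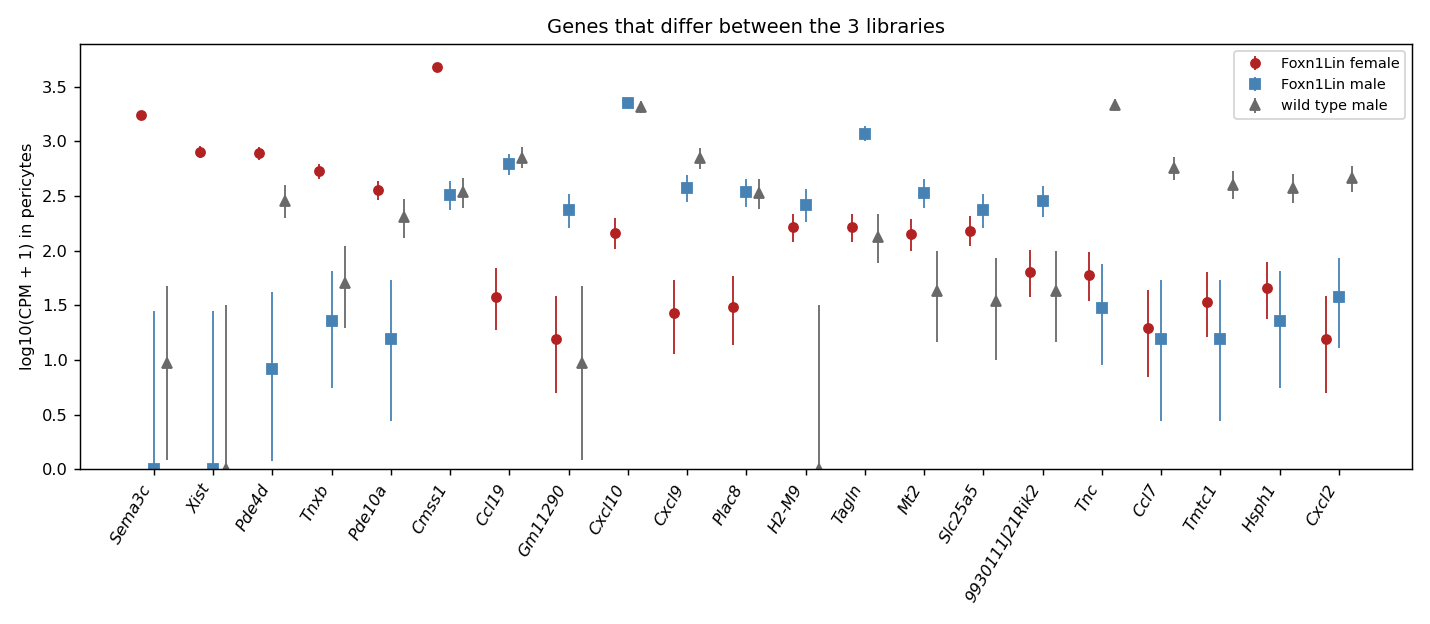
Level in pericytes, as log10(CPM + 1), of genes with the largest ratios between libraries, with 95% exact Poisson bars for counting error. Cxcl10 lies at 143 CPM in Foxn1Lin female and above 2000 CPM in both male libraries, and Tnc lies at 2150.6 CPM in wild type and below 60 CPM in the others.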

How the data were processed

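The deposited files give UMI counts, unnormalized, for each barcode and gene, which the authors made with Cell Ranger 7.0.1 on GRCm38 with 8 transgene features, counting reads in introns. The submitters' processing notes name Cell Ranger 7.01 and the builds GRCm38.p5 and mm10. Gene positions are those of GENCODE vM21.

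Barcodes passed with more than 1000 genes and under 20% mitochondrial counts. Counts were summed per library and class and scaled to CPM. The totals ranged from 119964 to 272031 UMIs in pericytes, and with 1 library per group precision is limited to counting error (exact Poisson and Clopper-Pearson intervals, scipy 1.17.1). The UMI counts are not per length, so levels are compared within a gene. Tests used edgeR 4.0.16 in R 4.3.3 (filterByExpr, TMM, library block), without the 7 genes of the rule. SE is that of the log2 fold change, and all adjusted p are from edgeR. DESeq2 1.42.0 was an alternative. vSMCs had at least 2 Myh11 UMIs with Pecam1, Epcam and Pdgfra at 0, and FBs at least 2 Pdgfra UMIs with Pecam1, Epcam and Myh11 at 0 and under 2 of Abcc9 and Kcnj8. Empty droplets were uncalled barcodes within 119 to 474, 22 to 84 and 24 to 94 UMIs. The p-values measure the spread between these 3 libraries.

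Scrublet in scanpy 1.11.5 marked 0, 5 and 2 doublets by its automatic threshold, so the highest 3.9% of scores were removed instead as an alternative. Members and gene lists were chosen with earlier results of these data known. Of 452 list genes, 450 were found under 1 gene identifier, and the other 2 symbols, each with 2 identifiers, were left out of the lists. Genes were named by rule: the 12 highest and 12 lowest fold changes past an adjusted p of 0.05, in 1 direction in 3 of 3 libraries and at 100 CPM or more in the higher class, then list members by role, the 20 highest ratios to all other barcodes and the 6 highest and lowest ratios between libraries. A few genes that this rule names are not reported here. A fold against 0 UMIs uses a floor of 3 counts over the group.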

Additional observations from a re-analysis of the deposited data

Results flagged for a closer look

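The reporter transcript tdT-WPRE (tdT-WPRE_trans in the files), outside the comparisons above, was present in pericytes at 62.5 CPM in Foxn1Lin female (17 UMIs in 14 of 78 barcodes) and 29.1 CPM in Foxn1Lin male (4 UMIs in 4 of 25), and had 0 UMIs in the wild type control. Other classes of the same libraries held tdT-WPRE_trans as well. It was at 65.7 and 151 CPM in vSMCs, 28.4 and 49.7 CPM in FBs, 50 and 46.1 CPM in ECs and 880 and 1501.2 CPM in TECs, and at 236 and 580 CPM in empty droplets. Pericytes were thus below empty droplets in both libraries.

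Tnc stood apart between libraries. In wild type it was higher in pericytes than in vSMCs (log2 ratio 1.85), while in Foxn1Lin female and Foxn1Lin male it was lower (−1.53 and −4.13). The difference was not tested.

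Ccl2, a monocyte chemokine, was higher in pericytes than in FBs in wild type (log2 ratio 1.49) and lower in Foxn1Lin female and Foxn1Lin male (−2.87 and −2.26). The difference was not tested. A single barcode held 72.3% of its wild type UMIs, and without that barcode Ccl2 was at 437 CPM beside 460 CPM in FBs.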

How the results depend on the processing

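The counts of genes higher and lower than in vSMCs (511 and 792) moved to 287 and 453 with DESeq2's Wald test and to 202 and 403 without the library block, and those lower than in FBs (1073) to 670 and 573. Leaving out 1 library at a time gave 281 to 550 higher and 495 to 818 lower against vSMCs, and 428 to 745 and 639 to 1072 against FBs, with the lowest values without Foxn1Lin female. Thinning to 3000 UMIs, which also dropped shallower barcodes here and in what follows, gave 502 lower than in vSMCs. No filter on low counts gave 444 and 1103 against vSMCs, or 28.7% higher among calls in place of 39.2%, and moved the median of all genes to −0.39 (−0.68 against FBs). A 2-fold limit gave 174 genes over all other barcodes, and thinning gave 38 genes higher in Foxn1Lin male than in wild type. The share of pericytes in Foxn1Lin female was 0.828% with at least 4 channel UMIs and 3 of Rgs5, 0.883% with stricter cell limits and 0.892% after thinning, and that in Foxn1Lin male 1.18% after thinning. With vSMCs defined by Acta2 and Tagln instead, Apoe (0.26) and C3 (0.49) changed direction, and without Foxn1Lin female Higd1b did (−0.17 to 0.51 over the libraries left out). The causes were not tested. Of 165 named or listed genes past the threshold against vSMCs, 71 lost their call under at least 1 setting, 55 of them without the block, and of 215 against FBs, 83 did, 67 without the block. Leaving out the deepest wild type pericyte, with 18.1% of that library's pericyte UMIs, was chosen after seeing the data and gave 456 and 724 against vSMCs and 637 and 1082 against FBs. The labels give no replicate number that pairs libraries, and the block is the library that both classes share. The 23 to 78 pericytes per library limit genes under about 100 CPM.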

Other observations

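H2-M9, a nonclassical MHC class I gene of a multigene family whose counts are therefore uncertain, was at 162 and 262 CPM in pericytes of Foxn1Lin female and Foxn1Lin male and had 0 UMIs in wild type pericytes (95% exact Poisson interval 0 to 30.7 CPM). It was seen in 20 of 78 and 6 of 25 pericytes. All other barcodes held it at 4.66, 1.59 and 0.333 CPM and empty droplets at 5.02, 2.1 and 0.554 CPM, so the level in pericytes of both Foxn1Lin libraries stood above that of the barcodes around them. The gene was named by its ratio between libraries, and the difference was not tested.

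Barcodes lost on a single term of the rule resembled pericytes to different degrees. Those with 1 Myh11 UMI (28, 8 and 13) had Notch3 at 1128.7, 499 and 1077.4 CPM, near the level in pericytes, and those with 1 Pecam1 UMI (16, 5 and 3) had it at 726, 629 and 465 CPM. Those with 0 Rgs5 UMIs (48, 46 and 27) had Notch3 at 102, 86.2 and 172 CPM.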
